A study of Mus musculus with 6 samples.

Results

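Pro-B and pre-B cells, the precursors that build the B cell receptor before a B cell leaves the marrow, were identified in the injured rotator cuff enthesis at 7 days postinjury (dpi). A barcode was kept as a cell with at least 1000 unique molecular identifiers (UMIs, counted RNA molecules), at least 200 genes and at most 10% mitochondrial UMIs. A kept barcode was called a precursor with at least 2 UMIs of Cd79a and either at least 2 UMIs of Vpreb1 and Igll1 together or at least 1 UMI each of Ebf1 and Dntt. Barcodes with any UMI of Ighd or Siglech were left out, as were barcodes with collagen UMIs (Col1a1, Col1a2 and Col3a1) at 0.5% or more. The rule found 1068 precursors among 85339 kept barcodes, 5368 of which had at least 2 Cd79a UMIs. Of the precursors, 701 held at least 1 UMI of Mki67 or Top2a and are called dividing, and 367 held none and are called resting. The members were thus selected on the UMIs of these genes, so the levels of those genes below are a description.

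The samples were enthesis tissue, where the tendon inserts into bone, from mice whose supraspinatus tendon had been cut and then repaired through tunnels in the bone. The 3 wild-type libraries came from C57BL/6 mice and 3 came from Nlrp3-/- mice, in which Nlrp3 is deleted in the whole body. Mice in this model were 12 to 14 weeks old at surgery, both groups had the tear and repair, and entheses were pooled, with the number of mice per library not given. Uninjured tissue was not analysed here, so the cells are described only after injury. Values given in a row below follow replicates 1, 2 and 3. The titles of Nlrp3-/- libraries 2 and 3 were used, since another label of theirs named a different Nlrp gene.

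A pro-B cell joins the gene segments of its heavy chain with the recombinase made of RAG1 and RAG2, while terminal transferase, the product of Dntt, adds bases at the joints. Once a heavy chain is made, it is paired with the surrogate light chain, made of VPREB and the product of Igll1, and with the signalling chains CD79A and CD79B to form the pre-B cell receptor. Signals from this receptor and from the IL-7 receptor drive a burst of division, after which resting pre-B cells recombine a light chain and become immature B cells. In adult mice this takes place in the bone marrow.

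The 6 matrices held 97042713 to 134901999 UMIs, and 9903 to 22048 barcodes per library were kept. Nlrp3-/- library 1 stood apart. It had the most kept barcodes, the lowest median depth over them (2069 UMIs, against 4874 to 7421 in the other libraries) and only 37 precursors. The comparisons of shares at the main settings are therefore also given without it. Xist, transcribed from the inactive X chromosome, was found in the Nlrp3-/- libraries and Y-linked genes in the wild-type libraries, so genotype and sex cannot be told apart in any comparison below. No precursor barcode occurred in more than 1 library, over all 15 pairs of libraries.

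The wild-type libraries held 201, 112 and 313 precursors and the Nlrp3-/- libraries held 37, 240 and 165. As a share of kept barcodes this was 1.59%, 0.722% and 3.16% in wild-type controls and 0.168%, 2.03% and 1.23% in Nlrp3-/- mice. The shares of the groups overlapped, with means of 1.82% ± 1.24 and 1.14% ± 0.934 (SD, n = 3 libraries each), and the difference of -0.682 percentage points did not exceed the spread between libraries (exact two-sided permutation test over 20 assignments, p = 0.5, where the smallest possible p is 0.1). Without Nlrp3-/- library 1, the difference was -0.194 percentage points (exact permutation p = 0.9), and without wild-type library 3 it was -0.0137 (exact permutation p = 1).

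Measured against barcodes with Cd79a, the precursors made up 24.01%, 13.5% and 27.8% in wild-type controls and 17.7%, 14.7% and 22.6% in Nlrp3-/- mice. These shares lay closer together, and the means of 21.8% ± 7.43 and 18.3% ± 4.02 (SD, n = 3) did not differ beyond their spread (exact two-sided permutation test, p = 0.5). The difference of -3.42 percentage points was -0.399 without wild-type library 3, -7.57 without wild-type library 2 and -3.10 without Nlrp3-/- library 1. Nlrp3-/- library 1, which was lowest by share of kept barcodes, was not the lowest here at the cells' own depth. When these barcodes were thinned at random to 1000 UMIs and the rule was applied again, it was the lowest, at 6.38% with 6 precursors. The difference between the groups was then -5.31 percentage points (exact permutation p = 0.2). For the share of kept barcodes it was -0.298 (exact permutation p = 0.3). The dividing precursors were 60.7%, 50.9% and 69.3% of all precursors in wild-type controls and 62.2%, 68.8% and 70.9% in Nlrp3-/- mice. The dividing share was on average 60.3% ± 9.22 and 67.3% ± 4.56 (SD, n = 3), a difference of 6.97 percentage points (exact two-sided permutation test, p = 0.3). It was 2.26 percentage points without wild-type library 2, 11.5 without wild-type library 3 and 9.52 without Nlrp3-/- library 1. With the minimum raised to 2000 UMIs the difference was 9.01 percentage points, with the smallest p this design allows (exact permutation p = 0.1). The groups no longer overlapped but were barely apart. The share was 71.854% in wild-type library 3 and 71.875% in Nlrp3-/- library 1, which held 32 precursors at that minimum.

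**Figure D1:**
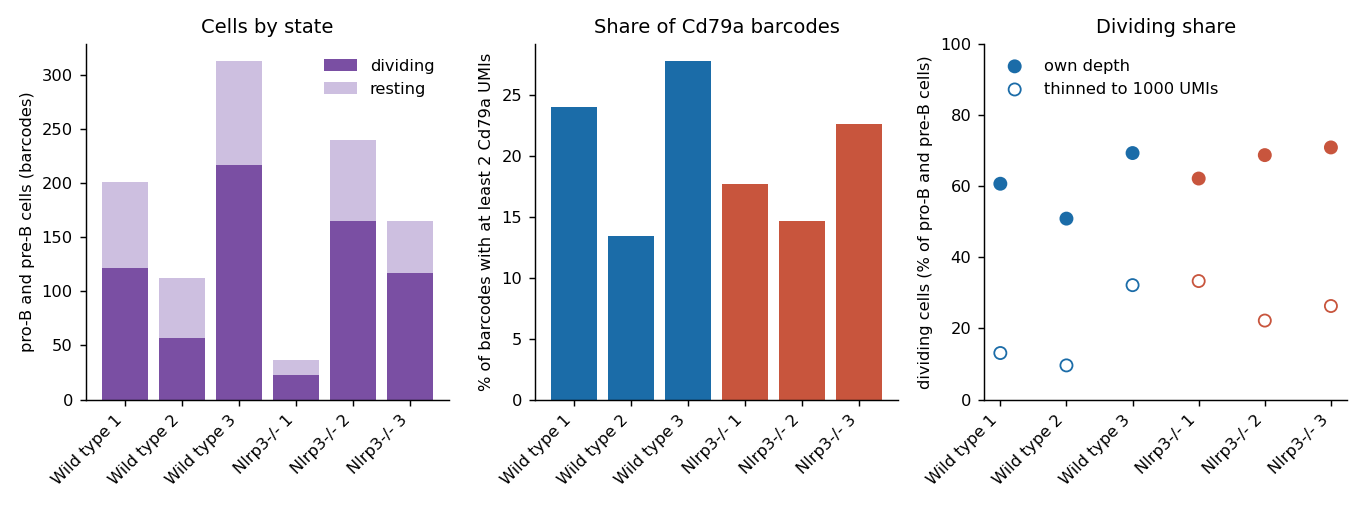
Precursor B cells in each of the 6 libraries, with wild type in blue and Nlrp3-/- in red in the second and last panels. Bars give the number of dividing and resting cells (at left, from 37 cells in Nlrp3-/- library 1 to 313 in wild-type library 3) and the share of barcodes with at least 2 Cd79a UMIs (in the middle, from 13.5% to 27.8%). Points give the dividing share at the cells' own depth (filled, 50.9% to 70.9%) and after thinning to 1000 UMIs (open), and the filled points of the groups overlap.

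Depth differed between the states. The median depth of dividing precursors was 12129, 7818 and 10062 UMIs in wild-type controls and 6451, 9304 and 9762 in Nlrp3-/- mice. Resting precursors had medians of 3085, 2566 and 3307.5 UMIs and of 2457.5, 2370 and 2746 UMIs. Every library thus had dividing precursors at over 2 times the depth of resting ones. When barcodes with at least 2 Cd79a UMIs were thinned to 1000 UMIs and the rule was applied again, the dividing share was 18.3% ± 12.2 in wild-type controls and 27.3% ± 5.62 in Nlrp3-/- mice (SD, n = 3, exact two-sided permutation test, p = 0.3). The libraries had 13.1%, 9.62% and 32.2% in wild-type controls and 33.3%, 22.2% and 26.3% in Nlrp3-/- mice, where library 1 kept only 6 precursors, 2 of them dividing.

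Most precursors entered through the surrogate light chain. In wild-type controls 93, 59 and 152 cells met this arm alone, 108, 53 and 158 met both arms, and 0, 0 and 3 met the Ebf1 and Dntt arm alone. In Nlrp3-/- mice the counts were 26, 150 and 86 for the surrogate light chain alone, 11, 87 and 79 for both, and 0, 3 and 0 for Ebf1 and Dntt alone. Dntt is best known from the pro-B stage, and cells of both arms were present in every library.

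At the limits of the rule, the 94 precursors with exactly 2 surrogate light chain UMIs held 5302 CPM of Igkc, the kappa light chain, where CPM scales the summed UMIs of a set of cells to the same total, and 2273 CPM of Vpreb3. The 209 barcodes with exactly 1 such UMI were similar in Vpreb3, at 2398 CPM, but held 39861 CPM of Igkc. Rag1 was at 184 CPM in these barcodes and at 116 CPM in the 94 precursors. A further 2322 barcodes had 0 such UMIs and met neither arm. They held 1281 CPM of Vpreb3, 189 CPM of Rag1 and 99088 CPM of Igkc, so the rule leaves out barcodes with RNA of these genes. These sums run over the cells of all libraries, and barcodes with RNA of plasma cells were not left out. The part of such barcodes in the Igkc values was not tested. The 74 precursors with exactly 2 Cd79a UMIs and the 50 barcodes with exactly 1 had 2078 and 1908 CPM of Vpreb3. A further 318 barcodes met the rule but for an Ighd UMI. These had a mean of 11421 UMIs, 564 CPM of Igkc and 15.4 CPM of Ms4a1, which encodes CD20 of later B cells. The limits on Siglech and collagen left out 3 and 56 barcodes.

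The label was checked against Vpreb3, a pre-B cell chaperone of the immunoglobulin chains, which the rule did not use. After thinning to 1000 UMIs, Vpreb3 was detected in 83.6%, 85.7% and 88.2% of precursors in wild-type controls and in 83.8%, 81.7% and 84.8% in Nlrp3-/- mice. In 300 neutrophils sampled per library (barcodes with at least 2% of UMIs from S100a8 and S100a9 and none from Cd79a) and thinned alike, which should lack it, the share was 0% to 1.67%, where 0 of 300 allows up to 1%. Unthinned, Vpreb3 was found in 98.8% to 100% of precursors and 0% to 2% of neutrophils, at median depths of 4583.5 to 8057 and 1622.5 to 4093 UMIs. The summed level of the pro-B and pre-B markers Vpreb1, Igll1, Vpreb3, Ebf1 and Cd79a was 6954 to 7109 CPM in the wild-type precursors and 6027 to 6567 CPM in the Nlrp3-/- precursors, against 294.7 to 654 and 253 to 493 CPM over all kept barcodes, a contrast that the rule itself set for all of these genes but Vpreb3. In Ighd-positive B cells, described below, thinned Vpreb3 was found in 27.6%, 25.9% and 65.5% in wild-type controls and 37.04%, 60.2% and 51.5% in Nlrp3-/- mice, below the precursors of the same library in all 6.

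Markers of other cells were also present, and in the wild-type libraries and Nlrp3-/- library 2 those of neutrophils lay above the pro-B and pre-B markers in summed level. The 6 neutrophil markers summed to 7533 to 15476 CPM in the wild-type and 538 to 12999 CPM in the Nlrp3-/- precursors, against 40408 to 85587 and 28286 to 46115 CPM over all kept barcodes. The 6 macrophage markers summed to 828 to 1176 and 1039 to 1290.0 CPM. The 3 T cell markers reached 21.8 CPM at most, the 3 NK cell markers 79.2 CPM, the 3 mesenchymal markers 754 CPM and the 4 erythroid markers 508 CPM. The progenitor markers Kit, Cd34 and Flt3 together had 23.4 to 28.7 and 17.8 to 22.7 CPM, and the 4 markers of plasmacytoid dendritic cells, of which Siglech was at 0 by the rule, had 288 to 353 and 311 to 351 CPM. Mature B cell markers, 1 of 6 at 0 in all libraries because Ighd was excluded, summed to 126 to 224 and 143 to 265 CPM. Plasma cell markers summed to 71.2 to 92.9 CPM in wild-type controls and 117 to 944.5 CPM in Nlrp3-/- mice. In wild-type controls 23, 9 and 22 precursors, and in Nlrp3-/- mice 2, 24 and 15, held at least 1% of UMIs from genes of other lineages. In barcodes of at most 100 UMIs, which hold mostly free RNA, the neutrophil gene S100a8 was at 12770 to 30406 CPM in wild-type controls and 8775 to 14285 CPM in Nlrp3-/- mice, above its 2411 to 5546 and 303 to 4045 CPM in the precursors of every library.

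Dividing precursors were then set against resting ones. Replication and mitosis genes were higher in dividing cells, by construction of the split for Mki67 and Top2a and as a description for the others. Rag1 and 11 of 18 transcription factors of the lineage were lower as a share of RNA in all 6 libraries. So were the surrogate light chain genes, of which the rule used Vpreb1 and Igll1. Of 3056 genes with a mean of at least 50 CPM in dividing or resting precursors, 731 were higher in dividing cells in all 6 libraries (23.9%) and 749 were lower in all 6 (24.5%). The median over all these genes was -0.04 on the log2 scale of CPM + 1. No test was made, since the same cells defined the states. Differences below are log2 values of dividing minus resting, as the mean over 6 libraries.

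The promoters of Igll1 and Rag1, which stand for the surrogate light chain and the recombinase below, are shown for the 250 bases before the RefSeq start on the GRCm38.p6 build, 5′ to 3′ on the gene's strand. Igll1 lies on the minus strand of chromosome 16 and its window is chr16:16863986-16864235, while Rag1 lies on the minus strand of chromosome 2 with the window chr2:101649533-101649782. Neither window overlapped the annotated gene. Capitals mark CAGGTG or its reverse complement CACCTG, an E-box to which E proteins such as E2A, the product of Tcf3, can bind.
Igll1: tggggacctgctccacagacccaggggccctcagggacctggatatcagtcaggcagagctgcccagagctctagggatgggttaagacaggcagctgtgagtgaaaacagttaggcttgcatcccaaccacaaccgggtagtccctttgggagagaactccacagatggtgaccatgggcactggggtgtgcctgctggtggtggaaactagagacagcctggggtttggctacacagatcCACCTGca
Rag1: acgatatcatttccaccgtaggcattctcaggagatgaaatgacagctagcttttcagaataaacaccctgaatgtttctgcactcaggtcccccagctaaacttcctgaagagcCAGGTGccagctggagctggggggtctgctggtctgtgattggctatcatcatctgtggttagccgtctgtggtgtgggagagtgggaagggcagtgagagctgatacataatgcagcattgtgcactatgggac
The E-box stood at position -8 in Igll1 and -135 in Rag1, counted back from the start. It was found in 17.2% of 32851 promoter windows. The letters CCCNNGGG, which resemble the site of EBF1, occurred once in the Igll1 window without overlap with the E-box, not in the Rag1 window, and in 11.8% of all windows. A match is a description of letters and was not tested as a binding site.

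Genes of the pre-B cell receptor and its signalling were a smaller share of RNA in dividing precursors. Of 15 genes, 10 were lower and 0 higher in all 6 libraries, with a median of -0.98. The rule used Vpreb1, Igll1 and Cd79a of this list, with minimum UMI counts that did not scale with depth. Such a minimum is a larger share of RNA in the shallower resting cells. The rule itself thus favours a lower share of these rule genes in dividing cells. Vpreb1 in dividing cells was 922, 774 and 832 CPM in wild-type controls and 497, 664 and 830.2 CPM in Nlrp3-/- mice. In resting cells it was 2910.1, 2998 and 2913 CPM and 1833, 2805 and 3075 CPM. All 6 resting values exceeded all 6 dividing values. Igll1, the partner of VPREB, had 844 ± 83.7 CPM in dividing and 2325 ± 185 CPM in resting cells (SD, n = 6). Vpreb3 had 1560 ± 175 and 4444 ± 579 CPM, a log2 difference of -1.51. Vpreb2, whose reads may be shared with its near copy Vpreb1, differed by -2.17.

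The signalling chains moved the same way, but the heavy chain did not. Cd79b, the partner of CD79A, had 501 ± 73.0 CPM in dividing and 1063 ± 238 CPM in resting cells (SD, n = 6), a log2 difference of -1.06. Blnk, the adaptor that links the receptor to its kinases, differed by -1.48 and was lower in 6 of 6 libraries. Ighm, the mu heavy chain, had 1252 ± 233 and 1377 ± 449 CPM. It was higher in dividing cells in 2 libraries and lower in 4, with log2 differences from -0.50 to 0.67.

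Recombination genes split by role. Rag1 in dividing cells was 24.4, 22.9 and 89.6 CPM in wild-type controls and 50.6, 42.4 and 66.5 CPM in Nlrp3-/- mice. In resting cells it was 251, 343 and 847 CPM and 388, 603 and 556 CPM. The lowest resting library was above the highest dividing library, and the log2 difference was -3.36, from -3.84 to -2.92. Dntt, which the rule used, differed by -1.75, and Xrcc6, the Ku70 end-binding protein, by -1.46. Hmgb1 and Hmgb2, abundant DNA-bending proteins that assist RAG cutting but are high in any dividing cell, were higher by 2.01 and 2.24. These 5 were the genes of the 12-gene list with enough counts, so 3 were lower and 2 higher in all 6 libraries.

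The levels per cell help to read these shares. A dividing cell held more UMIs, so that an equal number of molecules is a smaller share. The dividing call asks for at least 1 UMI of Mki67 or Top2a at any depth, so the split itself favours deeper barcodes as dividing. Its part in the difference in depth was not tested. Vpreb1 had 12.7, 9.47 and 10.1 UMIs per dividing cell and 12.04, 9.55 and 11.1 UMIs per resting cell in wild-type controls. In Nlrp3-/- mice it had 4.70, 7.51 and 9.61 UMIs per dividing cell and 6.07, 8.68 and 10.6 per resting cell. The rule asked for the same minimum of Vpreb1 and Igll1 UMIs in both states. The Vpreb1 counts lay close together in each library, unlike the CPM. Rag1 was different: it had 0.336, 0.281 and 1.08 UMIs per dividing cell and 1.04, 1.09 and 3.24 per resting cell in wild-type controls. In Nlrp3-/- mice Rag1 had 0.478, 0.479 and 0.769 UMIs per dividing cell and 1.29, 1.87 and 1.92 per resting cell. Rag1 was thus lower in dividing cells in all 6 libraries by count per cell as well as by share.

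When precursors with at least 2000 UMIs were each thinned to 2000 UMIs, an alternative chosen after the data were seen, 695 dividing and 278 resting cells remained. Rag1 then differed by -2.91, Vpreb1 by -1.96 and Hmgb1 by 2.28 on the log2 scale. Of 3055 genes, 495 were higher and 477 lower in all 6 libraries, of which 428 and 373 were also so without thinning, and 1 gene was in opposite directions. After this thinning Pax5, Pim1, Ltb and Adgrg1, which are named below, were lower in 5 of 6 libraries.

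Transcription factors of the B lineage were mostly lower in dividing cells, with 11 of 18 lower and 1 higher in all 6 libraries and a median of -0.52. Ebf1, which specifies the lineage and was used by the rule, differed by -1.44. Foxo1, which drives Rag transcription and is held in check by growth signals, had 80.9 ± 7.20 CPM in dividing and 225 ± 45.6 CPM in resting cells (SD, n = 6), a difference of -1.44. Lef1, a target of Wnt signals in pro-B cells, had 202 ± 50.03 and 659.7 ± 156 CPM and differed by -1.71. Erg, an ETS factor of early progenitors, had 20.1 ± 8.66 and 127 ± 40.7 CPM and differed by -2.69. Pax5, which holds B cell identity, differed less, by -0.57. The gene higher in all 6 was Irf8, a factor of B cell and myeloid fate, by 0.55.

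Of the IL-7 receptor pathway, 7 genes were measured, and 1 was higher and 3 lower in all 6 libraries. The receptor gene Il7r had 155 ± 60.02 CPM in dividing and 174 ± 56.3 CPM in resting cells (SD, n = 6) with no common sign. Ccnd3, the D cyclin needed for pre-B cell expansion, had 340.3 ± 51.6 and 164 ± 18.1 CPM, a log2 difference of 1.04. The survival gene Mcl1 differed by -1.33, the kinase gene Pim1 by -1.02 and Jak1 by -1.08, each lower in 6 of 6 libraries. Among 8 niche receptors and adhesion genes, Cd24a, a surface glycoprotein of early B cells, was higher by 1.12. Itga4, a subunit of the integrin VLA-4 that holds precursors to stroma, was lower by -1.20, and Bst1, known as BP-3, by -1.71.

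The cell cycle lists were one-sided, a direction that the split itself favours. All 14 DNA replication genes measured were higher in dividing cells, with a median of 2.02. Pcna, the clamp of DNA polymerase, had 654 ± 85.8 CPM in dividing and 194 ± 46.7 CPM in resting cells (SD, n = 6). All 16 mitosis genes, Mki67 and Top2a among them, were higher, with a median of 5.44. Over all 6 libraries resting cells held 0 to 91 UMIs of each of these genes, so the size of the differences rests on few UMIs. Other genes among those with the largest differences were the histone genes Hist1h2ap, Hist1h1b, Hist1h1a and Hist1h2ae, the cohesin acetyltransferase Esco2 and Fbxo5, an inhibitor of the anaphase-promoting complex. Their mean differences ran from 5.83 to 8.29. Of the mitosis genes, the spindle gene Nusap1 differed by 6.50, and the spindle motor gene Kif11 had 187 ± 54.8 CPM (SD, n = 6) in dividing cells and 0 UMIs in resting cells. Of the quiescence list, 5 of 8 genes were lower and 1 higher, and the CDK inhibitor gene Cdkn1b differed by -1.49 and the antiproliferative genes Btg1 and Btg2 by -1.70 and -1.46.

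The genes lower by the largest differences in dividing cells were led by Kdm5b, a demethylase of histone H3, with 11.3 ± 4.35 CPM in dividing and 137 ± 35.9 CPM in resting cells (SD, n = 6) and a difference of -3.54. It was followed by Rag1, then by the selenoprotein gene Selenom, by Smtnl2, the transcription factor Maf and Erg, with differences between -2.97 and -2.69 for these 4. Ltb, encoding lymphotoxin beta, Arpp21, the GTPase gene Gimap6 and Selenop, a selenium carrier, had differences from -2.68 to -2.59. The 12 dissociation response genes, which rise when tissue is dissociated, were also lower in dividing cells, 10 of 12 in all 6 libraries with a median of -0.92. Their part in the other differences was not tested.

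**Figure D2:**
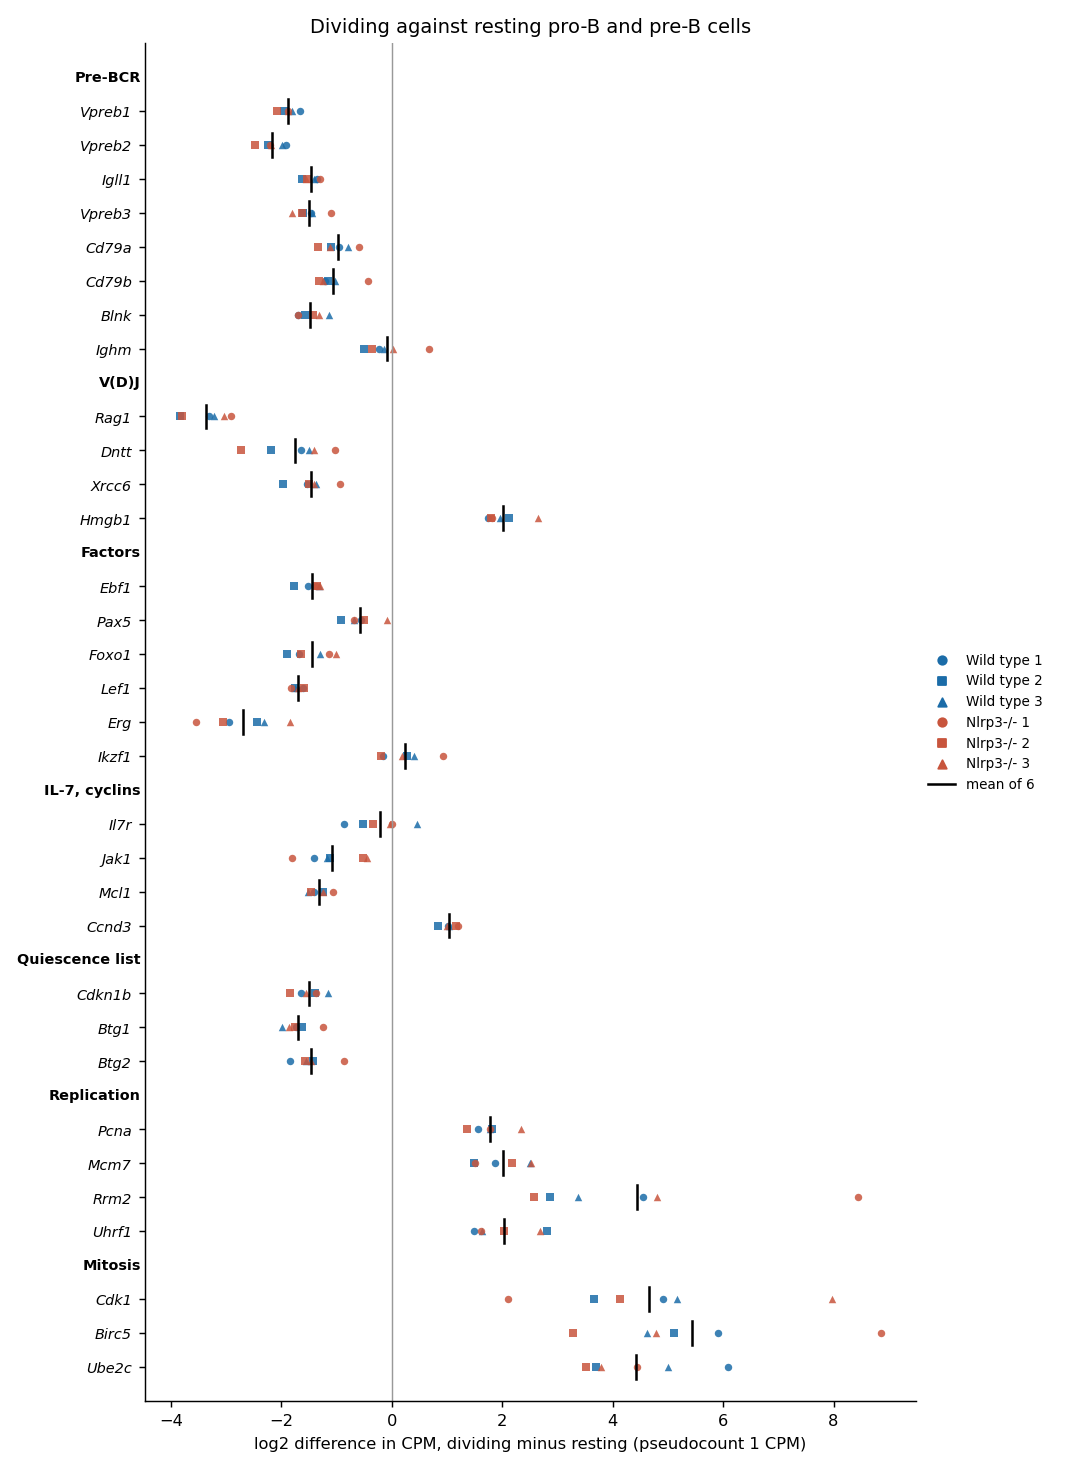
Log2 difference in CPM + 1 between dividing and resting precursors (horizontal axis) for genes of the lists, with points for the 6 libraries and a bar for their mean. Surrogate light chain genes and Rag1 lay below 0 in all 6 libraries, Hmgb1, Ccnd3 and Pcna above 0, and Ighm and Il7r on both sides.

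All precursors were also set against 1163 Ighd-positive B cells of the same libraries, which had 185, 243 and 220 cells in wild-type controls and 27, 352 and 136 cells in Nlrp3-/- mice. These cells had at least 2 UMIs of Cd79a and any UMI of Ighd, and met neither arm of the rule. The limits on Siglech and collagen were the same. The rule thus set the contrast in the surrogate light chain. Precursors held little of the antigen presentation and lambda light chain genes of later B cells. Of 3035 genes measured, 914 were higher in precursors in all 6 libraries (30.1%) and 701 lower in all 6 (23.1%), with a median of 0.07. The Ighd-positive cells were shallower, with median depths of 1708 to 2959.5 UMIs against 4583.5 to 8057. The sets were made from Ighd, Cd79a, Vpreb1, Igll1, Ebf1 and Dntt of these cells, so no test was made, and values below are log2 differences of precursors minus Ighd-positive cells.

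All 13 measured genes of B cell maturation were lower in precursors in 6 of 6 libraries, with a median of -3.63, Ighd among them by the rule. Ms4a1 was 13.9, 6.88 and 8.36 CPM in wild-type precursors and 3.79, 15.7 and 22.4 CPM in Nlrp3-/- precursors. In Ighd-positive cells it was 406, 514.6 and 313 CPM and 535, 788 and 354 CPM, so the sets were far apart in every library. Cd74, the invariant chain of MHC class II, had 361 ± 240 and 5401 ± 2745 CPM (SD, n = 6), a difference of -4.05. Fcmr, the receptor for IgM, differed by -6.24, the activation marker gene Cd83 by -4.64, and Bank1 and H2-DMb2, a B cell scaffold and an MHC class II loading chain, by -5.21 and -5.03.

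The lambda light chain constant genes were lower in precursors than in Ighd-positive cells in all 6 libraries, and the kappa gene Igkc in 5 of 6. Iglc2 had 7.13 ± 8.62 CPM in precursors and 448 ± 161 CPM in Ighd-positive cells (SD, n = 6), and Iglc1, Iglc2 and Iglc3, whose near-identical sequences may share reads, differed by -5.16, -6.51 and -4.88. Igkc was 295, 494 and 342 CPM in wild-type precursors and 7005, 573 and 4024 CPM in Nlrp3-/- precursors, where libraries 1 and 3 stood far above the rest. In those libraries 1 barcode each held 1680 and 5439 Igkc UMIs, which was 90.9% and 89.0% of the library's Igkc in precursors. Ighd-positive cells had 4280, 5120 and 3142 CPM of Igkc in wild-type controls and 3944, 21230 and 4477 CPM in Nlrp3-/- mice, so that only in Nlrp3-/- library 1 were the precursors higher. In barcodes of at most 100 UMIs, which hold mostly free RNA, Igkc was at 2286, 373 and 1329 CPM in wild-type controls. In Nlrp3-/- mice it was at 1802, 3852 and 3154 CPM there, and the part of free RNA in the precursor values was not tested. Heavy chain variable genes were seen in 9.95%, 5.36% and 11.5% of wild-type and 16.2%, 5.42% and 13.3% of Nlrp3-/- precursors, and light chain variable genes in 14.9%, 9.82% and 13.1% and in 13.5%, 22.1% and 14.5%. Reads lie at the 3′ end of transcripts in this assay, so these shares are not the fraction of cells with a rearranged chain.

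The genes higher in precursors beyond those of the rule included Vpreb2, whose reads may be shared with Vpreb1, with 164 ± 49.98 CPM against 0.391 ± 0.958 CPM (SD, n = 6). Myl10, a myosin light chain, had 141 ± 72.6 and 2.02 ± 4.49 CPM. Bfsp2, a lens filament protein, differed by 2.92, Lef1 by 2.73, Socs2, a feedback regulator of JAK and STAT signals, by 2.72, Nrgn, a calmodulin-binding protein, by 2.70 and the adhesion receptor gene Adgrg1 by 2.30. Nrgn was also higher in dividing than in resting precursors, by 3.85, and Adgrg1 lower, by -1.09. Of 14 replication genes, 13 were higher in all 6 libraries, with a median of 1.36. The D cyclin gene Ccnd3 differed by 0.98.

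The rule used Vpreb1, Igll1 and Cd79a of the pre-B cell receptor list, the first pair higher and Cd79a lower in precursors. Of this list, 4 of 15 genes were higher and 8 lower in all 6 libraries, with a median of -0.34. For the transcription factors these counts were 2 and 5 of 18 (median -0.08), for the IL-7 receptor pathway 3 and 2 of 7 (median 0.64) and for the niche list 1 and 6 of 10 (median -0.71). Vpreb3 was higher in precursors in all 6 but by as little as 0.09 and as much as 2.21, since Ighd-positive cells held 419, 541 and 2132 CPM in wild-type controls and 813, 1521 and 1657 CPM in Nlrp3-/- mice. Rag1 had 111 ± 40.7 CPM in precursors and 126 ± 94.5 CPM in Ighd-positive cells (SD, n = 6), higher in 3 libraries and lower in 3. Pax5 and Ebf1 also had no common sign. The receptor chains Ighm and Cd79b were lower in precursors by -0.85 and -0.84. Klf2, a factor that promotes exit from tissue, was lower in precursors by -1.71 and the chemokine receptor gene Ccr7 by -2.79.

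**Figure D3:**
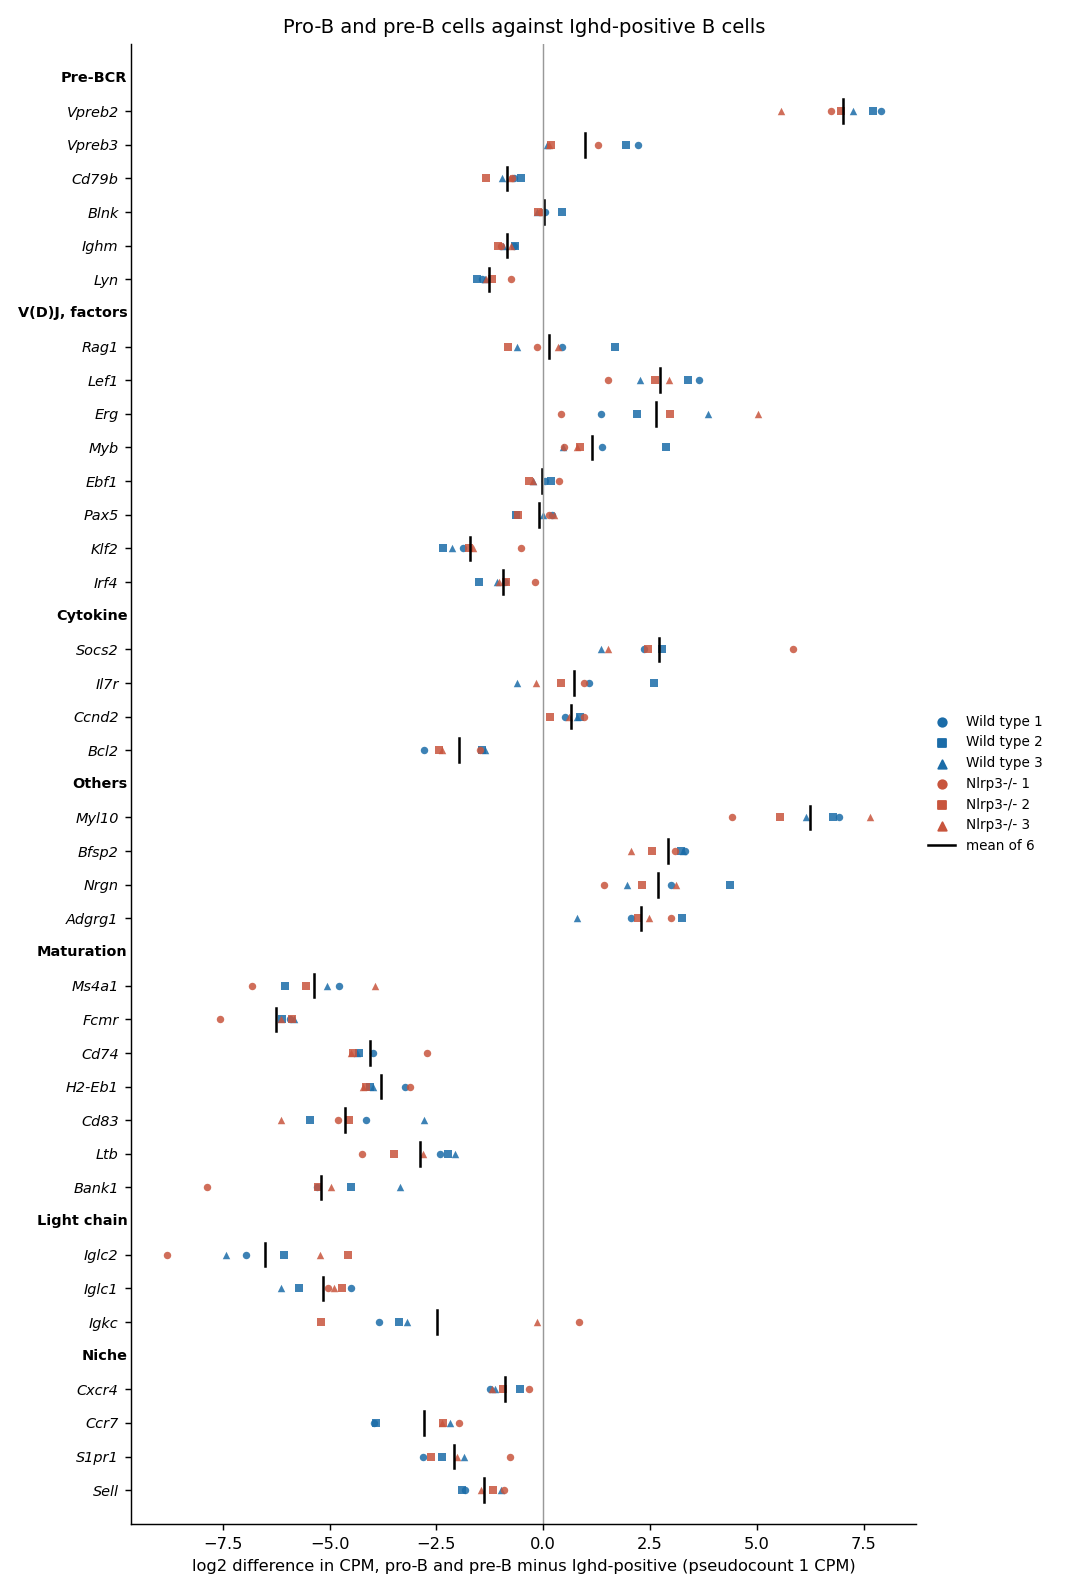
Log2 difference in CPM + 1 between precursors and Ighd-positive B cells of the same library (horizontal axis), with points for the 6 libraries and a bar for their mean. Maturation and lambda light chain genes lay below 0 in all 6 libraries, Vpreb2, Myl10 and Lef1 above 0, and Rag1, Ebf1 and Pax5 on both sides.

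In droplet data a UMI can be free RNA, so Rag1 was also counted by cells. After thinning to 1000 UMIs, Rag1 was detected in 7.96%, 18.8% and 24.3% of wild-type precursors and 16.2%, 19.6% and 17.6% of Nlrp3-/- precursors. Ighd-positive cells had 3.78%, 2.47% and 24.1% and 18.5%, 16.2% and 9.56%. None of the 300 thinned neutrophils per library had a Rag1 UMI, which allows a share of up to 1% for counting error only. Unthinned, 32.3% to 54.3% of precursors and 0% to 1% of neutrophils had one. Rag1 in precursors was thus above the level in neutrophils in each library.

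The genotype comparison asked whether RNA levels in precursors differed between Nlrp3-/- mice and wild-type controls. UMIs were summed over the precursors of each library, 263809 to 2990115 per library, and tested with edgeR's quasi-likelihood test with Benjamini-Hochberg adjustment over 9101 genes. Nlrp3 was checked first. It had 44, 42 and 62 UMIs in the wild-type precursors (21.9, 48.1 and 20.7 CPM) and 0, 0 and 0 UMIs in the Nlrp3-/- precursors. Nlrp3 in all neutrophils of the library was 178, 578 and 304 CPM in wild-type controls and 0 in all 3 Nlrp3-/- libraries. Its UMIs in wild-type precursors came from 21, 10 and 27 barcodes. In barcodes of at most 100 UMIs, which hold mostly free RNA, Nlrp3 was at 93.6, 174 and 165 CPM in wild-type controls, above its level in the precursors, and at 0 in Nlrp3-/- mice, so the 0 checks the label of the library. With precursors of at least 1% UMIs from other lineages left out, the log2 fold change was -7.16 (edgeR, Benjamini-Hochberg adjusted p = 0.0069).

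At an adjusted p of 0.05, 25 of 9101 genes were called (0.275%), with 11 at a higher level in Nlrp3-/- mice and 14 at a lower one. At an unadjusted p of 0.05, 732 genes passed (8.04%), 271 higher and 461 lower, and the median over all genes was 0.01. These counts moved with the processing, to 124 higher and 294 lower without wild-type library 3 and to 83 higher and 172 lower with no filter on low counts. The unadjusted share is the background for the lists below.

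Of the 25 genes, 5 lay on the X chromosome and 4 on the Y chromosome. Xist had 0, 0 and 0.334 CPM in wild-type controls and 1584.5, 1574.5 and 1329.5 CPM in Nlrp3-/- mice. Ddx3y, a Y-linked RNA helicase gene, had 32.8, 45.9 and 48.2 CPM in wild-type controls and 0 UMIs in all Nlrp3-/- libraries. Eif2s3x, an X-linked translation factor gene, was higher by 0.95 and Mid1, an X-linked ubiquitin ligase gene, by 2.91 (edgeR, Benjamini-Hochberg adjusted p = 0.0468 and 0.00059). The Eif2s3x call was lost in 8 of 14 alternatives, among them leaving out any library but wild-type library 3. Xist and the Y-linked genes are markers of sex. Sex is confounded with genotype here, so the other X-linked calls cannot be ascribed to either.

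A further 6 of the 25 lay on chromosome 11, which held 8.29% of the genes tested, and the annotation places Nlrp3 there at 59541568 to 59566956 on GRCm38. Besides Nlrp3 these were Hist3h2ba at 0.6 Mb from it, Lyrm7 at 4.7 Mb, Uqcrq at 6.1 Mb, Thg1l at 13.6 Mb and 4930597A21Rik at 15.0 Mb. Uqcrq, a subunit of respiratory complex III, was 818, 666 and 443 CPM in wild-type controls and 307, 252 and 256 CPM in Nlrp3-/- mice. The groups did not overlap, and the log2 fold change was -1.39 ± 0.23 (SE, edgeR, Benjamini-Hochberg adjusted p = 0.020). The call was lost when any library but wild-type library 3 was left out (edgeR, Benjamini-Hochberg adjusted p = 0.0747 to 0.171). Over all kept barcodes Uqcrq was 576, 557 and 362 CPM against 299, 249 and 255 CPM, so the difference was not limited to precursors. Thg1l, a tRNA guanylyltransferase, was 7.46, 11.5 and 12.4 CPM against 34.1, 33.9 and 38.8 CPM, a log2 fold change of 1.66 (edgeR, Benjamini-Hochberg adjusted p = 0.0132). The Thg1l call was lost without wild-type library 1, Nlrp3-/- library 2 or Nlrp3-/- library 3 (edgeR, Benjamini-Hochberg adjusted p = 0.0504 to 0.166). The histone gene Hist3h2ba was 41.8, 31.0 and 61.2 CPM against 0, 0.477 and 0.658 CPM.

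The other genes passing the threshold were not of the B cell lists. Tpm3-rs7, a tropomyosin copy on chromosome 14 whose reads may be shared with its parent gene, was 128, 71.1 and 173 CPM in wild-type controls and 7.58, 1.43 and 2.63 CPM in Nlrp3-/- mice. Chil3, a chitinase-like protein of myeloid cells, was 139, 116 and 44.5 CPM against 3.79, 26.7 and 16.5 CPM, a log2 fold change of -2.45 ± 0.45 (SE, edgeR, Benjamini-Hochberg adjusted p = 0.0468). The call was lost in 7 alternatives and kept in 6. Leaving out any library but wild-type library 3 was among those that ended it (edgeR, Benjamini-Hochberg adjusted p = 0.0907 to 0.313). In wild-type controls 29.3%, 66.3% and 51.9% of its UMIs were in 1 precursor barcode. Chil3 was also higher in wild-type neutrophils, at 2255 to 3154 CPM in the wild-type libraries and 403 to 940.3 CPM in the Nlrp3-/- libraries. Barcodes of at most 100 UMIs had 832, 310 and 579 CPM of Chil3 in wild-type controls and 80.2, 168 and 126 CPM in Nlrp3-/- mice. This was above its level in the precursors of every library, and the part of free RNA was not tested. With precursors holding at least 1% of other-lineage UMIs left out, Chil3 had too few counts to be tested.

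The plasma cell genes Jchain and Igha passed the threshold, with nearly all their UMIs in 2 barcodes. Jchain, which joins secreted antibodies, had 2, 1 and 3 UMIs in wild-type precursors and 195, 23 and 1254 UMIs in Nlrp3-/- precursors. In Nlrp3-/- library 1 a single barcode held all 195, and in library 3 a single barcode held 1239. Igha, the IgA constant region, had 322, 29 and 1716 UMIs there, 320 and 1715 of them in 1 barcode each. With the 2 barcodes at 1% or more plasma cell RNA left out, a choice made after the data were seen, both genes had too few counts to be tested. The same 2 barcodes carried Igkc, whose log2 fold change of 3.26 (edgeR, Benjamini-Hochberg adjusted p = 0.0556) became 0.44 without them (edgeR, Benjamini-Hochberg adjusted p = 0.625). Over all 15 alternatives, which include leaving these barcodes out, Igkc passed in 5. These were the DESeq2 Wald test (adjusted p = 0.0155), no filter on low counts, the Ighd limit dropped, and 2 fits without a library. The library left out was wild-type library 3 or Nlrp3-/- library 2 (edgeR, Benjamini-Hochberg adjusted p = 0.0313 and 7.21e-06).

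The pre-B cell receptor list held 15 genes, of which Vpreb1, Igll1 and Cd79a served to choose the cells, at the same limits in both genotypes, and are described without a test. Vpreb1 was 1244.5, 1221 and 1087 CPM in wild-type controls and 732, 901 and 1075 CPM in Nlrp3-/- mice, so that Nlrp3-/- library 3 nearly reached wild-type library 3. Igll1 was 1171, 1009 and 1049.8 CPM against 1092, 939 and 1095 CPM, with overlap.

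Of the other 12 genes of the list, 0 passed the adjusted threshold in edgeR and 5 the unadjusted one, with 5 higher and 7 lower in Nlrp3-/- mice and a median of -0.08. Cd79b was 637, 771 and 578 CPM in wild-type controls and 527, 474 and 511 CPM in Nlrp3-/- mice. The groups did not overlap, and the log2 fold change was -0.52 (edgeR, Benjamini-Hochberg adjusted p = 0.358). Blnk was 207, 245 and 232 CPM against 129, 206 and 197.5 CPM, with a log2 fold change of -0.44 (edgeR, Benjamini-Hochberg adjusted p = 0.545). Cd79b passed without wild-type library 3 (edgeR, Benjamini-Hochberg adjusted p = 0.0229) and by the DESeq2 Wald test (adjusted p = 0.0339), as did Vpreb2 (adjusted p = 0.0125 and 0.0435), which also passed with no filter on low counts, while Fcrla was called higher without that library.

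Ighm, the heavy chain gene, at 1019, 1136 and 1375.5 CPM against 1092, 1675 and 1321 CPM, had a log2 fold change of 0.10 ± 0.16. Vpreb3 had -0.31 ± 0.13. Fcrla, an Fc receptor-like protein inside B cells, and Lyn, a receptor kinase, had 0.65 and 0.27, with overlapping groups.

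Of 10 recombination genes besides Dntt, 0 passed in edgeR at either threshold. Rag1 was 61.2, 87.1 and 183 CPM in wild-type controls and 109.9, 104 and 119.8 CPM in Nlrp3-/- mice. The wild-type libraries lay on both sides of the Nlrp3-/- libraries, and without wild-type library 3 the log2 fold change of -0.11 turned to 0.44. Dntt, used by the rule, was 286, 237 and 363 CPM against 87.2, 208 and 361 CPM, with Nlrp3-/- library 1 lowest. For the 20 transcription factors besides Ebf1, 0 passed the adjusted and 4 the unadjusted threshold in edgeR, and 16 of the 20 had positive fold changes, with a median of 0.21. DESeq2 gave an adjusted p for 3 genes of the recombination list and 11 of the factors and called 0 of them, and without wild-type library 3 edgeR called 4 factors higher, which were Bach2, Ikzf1, Myb and Pax5. Pax5 was 121, 120.4 and 279 CPM against 280.5, 274 and 251 CPM, so that wild-type library 3 lay with the Nlrp3-/- libraries. Its log2 fold change was 0.50 ± 0.26, and without wild-type library 3 it was 0.96 (edgeR, Benjamini-Hochberg adjusted p = 0.0049). Klf2 did not overlap between the groups and had a log2 fold change of 0.84 ± 0.24 (SE, edgeR, Benjamini-Hochberg adjusted p = 0.297). It passed in 1 alternative.

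The IL-7 receptor gene showed the same split within wild-type controls. Il7r was 89.6, 90.6 and 167 CPM in wild-type controls and 216, 214 and 172 CPM in Nlrp3-/- mice. Wild-type library 3 was close to the lowest Nlrp3-/- library, and the log2 fold change was 0.65 ± 0.22 (SE, edgeR, Benjamini-Hochberg adjusted p = 0.418). Without wild-type library 3 it was 0.95 (edgeR, Benjamini-Hochberg adjusted p = 0.0080). Of its pathway, 0 of 15 genes passed the adjusted and 1 the unadjusted threshold in edgeR, and DESeq2 called 0 of the 5 to which it gave an adjusted p. Among niche genes, Cd24a was 654, 785 and 855 CPM against 1156, 1293 and 1148 CPM, with no overlap and a log2 fold change of 0.53 ± 0.14 (SE, edgeR, Benjamini-Hochberg adjusted p = 0.241). The DESeq2 Wald test called Cd24a (adjusted p = 0.0107), and without wild-type library 3 edgeR called Cd24a and Cxcr4. For replication genes 0 of 16 passed the adjusted threshold in edgeR and 2 the unadjusted one, and for mitosis genes besides Mki67 and Top2a 0 of 18 passed at either, with medians of 0.15 and 0.23. Of the maturation genes 0 of 12 passed and 3 at the unadjusted threshold, with 10 lower and a median of -0.26, and of the quiescence genes 0 of 11 passed at either threshold, with a median of 0.23. DESeq2 gave an adjusted p for 12, 12, 4 and 5 genes of these lists and called 0. Without wild-type library 3, edgeR called Mcm7, Cdk1, Nusap1, Cdkn2c and Foxp1 higher and Cd37, H2-Ab1 and Ltb lower.

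Interferon-response genes did not pass in edgeR. All 5 measured had negative log2 fold changes with a median of -1.59, and 3 passed the unadjusted threshold. Ifi27l2a was 530.0, 304 and 171 CPM in wild-type controls and 159, 113 and 72.4 CPM in Nlrp3-/- mice. Its log2 fold change was -1.79 ± 0.39 (SE, edgeR, Benjamini-Hochberg adjusted p = 0.132), and it passed in 4 alternatives, which were the DESeq2 Wald test (adjusted p = 0.0461), no filter on low counts, and the replicate number as a block or wild-type library 3 left out (edgeR, Benjamini-Hochberg adjusted p = 0.0011 and 0.0019 for the last pair). Isg15, a ubiquitin-like protein, was 26.9, 27.5 and 9.70 CPM against 7.58, 5.72 and 9.21 CPM. Isg15 and Rtp4 were also called lower in edgeR without wild-type library 3. Over all kept barcodes Ifi27l2a was 913, 608 and 262 CPM against 171, 136 and 145 CPM. The groups did not overlap there either, so the difference was not limited to precursors.

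**Figure D4:**
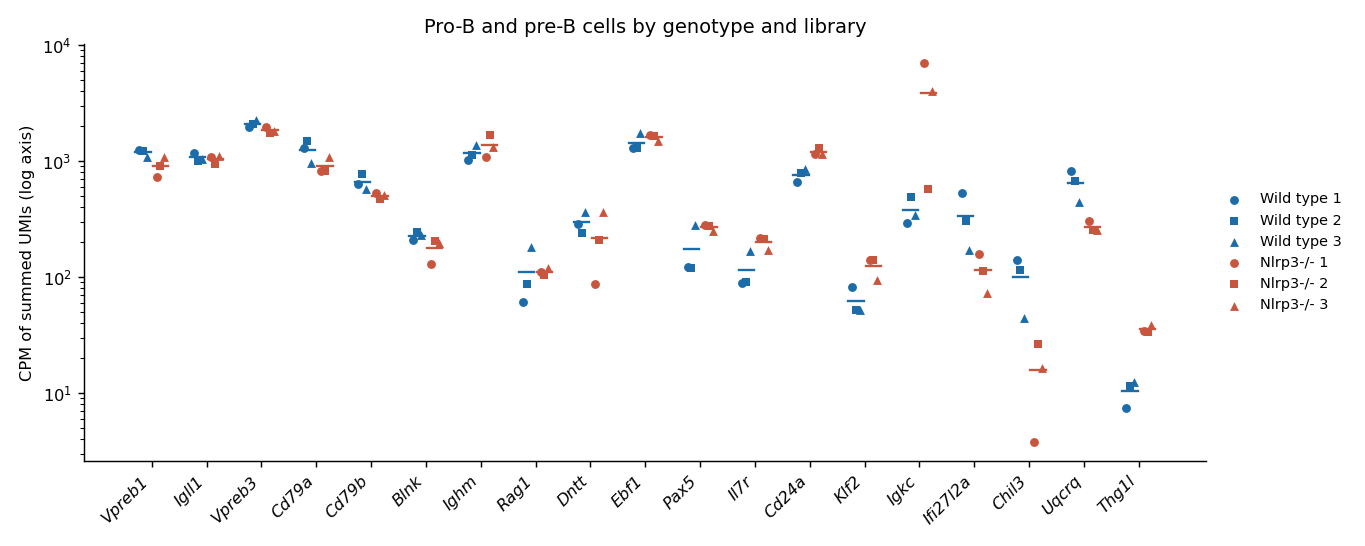
CPM of selected genes in the precursors of each library, on a log axis, with points for libraries of wild-type controls (blue) and Nlrp3-/- mice (red) and lines for group means. Uqcrq and Cd24a did not overlap between the groups, while for Rag1 and Pax5 wild-type library 3 lay among or above the Nlrp3-/- libraries.

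In dividing precursors alone, 23 of 8525 genes passed (0.27%), 10 higher and 13 lower in Nlrp3-/- mice, again with Xist, Uqcrq (-1.46), Chil3 (-2.64), Thg1l (1.55) and the Y-linked genes among them. Igkc passed here as well, by 3.65 (edgeR, Benjamini-Hochberg adjusted p = 0.0398), as did Jchain and Igha (edgeR, Benjamini-Hochberg adjusted p = 0.0169 for each). Both barcodes with plasma cell RNA named above were dividing precursors and are included in these values. The histone gene Hist1h2bj was lower by -1.36 ± 0.25 (SE, edgeR, Benjamini-Hochberg adjusted p = 0.0398). Of the 12 pre-B cell receptor genes that did not serve to choose the cells, 0 passed in edgeR and 3 did at the unadjusted threshold, which 8.13% of all genes passed, and DESeq2 called 0 of those with an adjusted p. Without wild-type library 3, 143 genes were called higher and 352 lower in edgeR, with Fcrla of these 12 higher and Cd79b and Vpreb2 lower.

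Nlrp3-/- library 1 held 14 resting precursors, under the 20 set as a minimum, so resting cells were compared in 5 libraries, a choice made after the data were seen. There 28 of 3947 genes passed (0.709%), 17 higher and 11 lower in Nlrp3-/- mice. Ifi27l2a was 680.1, 423 and 308 CPM in wild-type controls and 138 and 48.3 CPM in Nlrp3-/- libraries 2 and 3, a log2 fold change of -2.37 ± 0.40 (SE, edgeR, Benjamini-Hochberg adjusted p = 0.0028). Uqcrq was lower by -1.61 and Ccl4, a chemokine gene, by -5.33. Among higher genes were Spp1 (3.16), Lgals3 (2.56), Ctsk (4.15), Ctsl (2.02), Cd63 (1.43) and Cd44 (1.45), of which Spp1, Lgals3, Ctsk and Ctsl are strongly expressed in macrophages or osteoclasts. In Nlrp3-/- libraries 2 and 3, 1 resting barcode held 68.6% and 89.0% of the Spp1 UMIs and 62.4% and 59.4% of the Lgals3 UMIs. In library 3 a single barcode held 95.0% of the Ctsk UMIs, and the part of such barcodes in the result was not tested. Of the same 12 pre-B cell receptor genes 0 passed in edgeR, also at the unadjusted threshold, which 9.1% of all genes passed. Without wild-type library 3, 61 genes were called higher and 90 lower, Rag1 among the higher ones.

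A test of the genotype effect in dividing minus resting precursors, with the library as a block, called 7 of 5616 genes (0.125%), 1 higher and 6 lower. None belonged to the lists of the pre-B cell receptor, recombination, transcription factors, IL-7 or the niche, of which 0 of 12, 0 of 6, 2 of 19, 0 of 11 and 2 of 13 genes not used by the rule passed the unadjusted threshold in edgeR, against 5.68% of all genes. Of the B cell maturation list 0 of 10 passed and 5 did at the unadjusted threshold, with a median of -0.70, among them Cd74 (-1.72) and H2-Eb1 (-2.56), which myeloid cells also express. Of the genes of other lineages that the rule did not use, 9 of 11 also had negative values, with 0 past the adjusted threshold in edgeR, 5 at the unadjusted one and a median of -0.74, among them Cd68 (-1.94) and the neutrophil genes Camp (-1.31) and S100a9 (-0.74), and their part in the result was not tested. Replicates are libraries, and since entheses were pooled and the animals of each library are not given, the p-values measure only the spread between these libraries.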

How the data were processed

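Droplet-based 3′ single-cell RNA was measured in 6 libraries, 3 per genotype. The authors deposited raw matrices of UMI counts, not normalized and not filtered for cells, over 32285 genes. The submitters' processing notes name Cell Ranger 2.1.1 and mm10, while the matrix header names a later Cell Ranger. Depth was 97042713 to 134901999 UMIs per library, and the number of libraries limits the precision.

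The members and gene lists were chosen with earlier results of these data known. No doublet caller was run; an alternative left out precursors with at least 1% UMIs of other lineages. Counts were summed per library and tested with edgeR 4.0.16 (R 4.3.3) by the quasi-likelihood test after TMM and filterByExpr, with Benjamini-Hochberg adjustment and a threshold of 0.05. The SE goes with the fold change and its p. Shares were compared by exact two-sided permutation tests, enumerated in Python 3.11.15. Descriptions used CPM with a pseudocount of 1 on the log2 scale and genes with at least 50 CPM on average. Named genes were all genes of the 14 lists, Nlrp3 and sex-linked genes, and up to 10 per direction with the largest differences, of at least 20 CPM, without overlap and without predicted symbols for the genotype comparison. 1 gene of the lists was counted with them, and its own values are not reported here. Other genes named in the comparisons of dividing or resting cells, and the chromosome 11 genes, were chosen after their values were seen. Gene positions are from GENCODE on GRCm38 and promoters from RefSeq. The scripts were tested on simulated data. Alternatives were RLE factors, no low-count filter, DESeq2 1.42.0, a replicate block, each library left out, 2000 UMIs, a 5% mitochondrial limit, and thinning. Dropping the Ighd limit, leaving out plasma cell RNA, thinning to 2000 UMIs and the 5-library fit were chosen after the data were seen.

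No pairing of the libraries by replicate number was seen, as correlations of same-numbered deviations over 9101 genes were -0.0512, -0.0398 and -0.0399. With 3 libraries per group, such correlations cannot exclude a pairing, also for single genes.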

Additional observations from a re-analysis of the deposited data

Results flagged for a closer look

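The genotype effect differed between dividing and resting precursors for 7 genes, by a test of that difference in edgeR with Benjamini-Hochberg adjustment and the library as a block. Values are log2 fold changes of Nlrp3-/- against wild-type controls in dividing minus resting cells. Ctsk, a protease gene of osteoclasts, had -6.03 ± 0.78 (SE, adjusted p = 0.000907). Hmox1, the haem oxygenase gene, had -3.25 ± 0.51 (adjusted p = 0.00783). The lysosomal protease gene Ctsl had -2.01 ± 0.35 (adjusted p = 0.0182), the lamin gene Lmna -1.79 ± 0.35 (adjusted p = 0.0409), the protease inhibitor gene Cstb -1.54 ± 0.29 (adjusted p = 0.027) and the ferritin gene Ftl1 -0.66 ± 0.12 (adjusted p = 0.027). Mgp, a matrix protein gene, had 4.01 ± 0.71 (adjusted p = 0.0182). None of them is a B-lineage gene.

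Single barcodes carried much of these values. Of the Ctsk UMIs in dividing cells of the wild-type libraries, 85.2%, 95.6% and 93.3% were in 1 barcode, and 95.0% of those in resting cells of Nlrp3-/- library 3. For Hmox1, 1 resting barcode of Nlrp3-/- library 3 held 125 UMIs, or 96.9%. For Mgp, 1 dividing barcode of Nlrp3-/- library 2 held 175 UMIs, or 87.1%. Without Nlrp3-/- library 1, which had 14 resting precursors, 1 gene was higher and 8 were lower of 7326 tested, an alternative chosen after the data were seen. The part of single barcodes was not tested.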

How the results depend on the processing

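The share comparisons kept their direction under all 12, 12 and 13 alternatives, and none could pass the threshold in a design of this size. Of 504 alternatives for 35 named genes, 439 kept direction and side, 31 lost significance, 28 gained it and 6 reversed, and DESeq2 gave no adjusted p for 16 genes. The 35 include Vpreb1, Igll1, Cd79a, Dntt and Ebf1, which the rule used, so their part of this count is a description. Ebf1 gave 4 of the reversals, and Cd79a and Vpreb1 gave 3 and 2 of the gains. For all precursors (11 higher, 14 lower), no low-count filter gave 83 and 172, DESeq2 gave 67 lower, leaving out precursors with other-lineage UMIs gave 7 higher, and leaving out 1 library gave 7 to 124 higher and 10 to 294 lower. For dividing precursors (10 and 13), DESeq2 gave 89 lower, and leaving out 1 library gave 5 to 143 higher and 7 to 352 lower. For resting precursors in 5 libraries (17 and 11), DESeq2 gave 9 and 18, and leaving out 1 library gave 7 to 61 higher and 4 to 90 lower. The upper ends came without wild-type library 3, and the cause was not tested. Thinning to 2000 UMIs gave 477 genes lower in dividing cells, against 749. Leaving out 1 library turned the sign of Ighm (-0.054 to 0.211), Rag1 (-0.396 to 0.442) and Ebf1 (-0.026 to 0.124, also -0.0096 without wild-type library 1 and -0.013 without Nlrp3-/- library 1), and a minimum of 2000 UMIs that of Ebf1 (-0.0027). With the replicate number as a block, the genes called were 10 higher and 15 lower in all, 8 and 12 in dividing and 21 and 14 in resting precursors, and the share tests gave exact permutation p = 0.5, 0.5 and 0.25, the last the smallest 3 pairs allow; differences in the shares were -0.682, -3.42 and 6.97 percentage points. Igha and Jchain had too few counts without doublet-like or plasma cell RNA barcodes, and Chil3 without the former. Nlrp3-/- library 1 held 14 resting precursors, too few for the comparison.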

Other observations

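The inflammasome list had 8 of 13 genes tested between genotypes; besides Nlrp3 none passed the adjusted threshold in edgeR with Benjamini-Hochberg adjustment. Pycard, the adaptor ASC, was 101, 92.8 and 113 CPM in wild-type and 144, 142 and 113 CPM in Nlrp3-/- precursors. Casp1, the protease of the inflammasome, was 20.9, 16.1 and 19.4 CPM against 22.7, 21.5 and 15.8 CPM, with overlapping groups.

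The dissociation response list had 0 of 12 genes past the adjusted threshold in edgeR and 3 at the unadjusted one, and the DESeq2 Wald test called 1, Fos, of the 7 to which it gave an adjusted p. Fos was 101, 104 and 130.4 CPM in wild-type and 345, 180 and 156 CPM in Nlrp3-/- precursors, with no overlap (edgeR, Benjamini-Hochberg adjusted p = 0.369), while Jun was 296, 236 and 284 CPM against 330, 281 and 240.2 CPM, with overlap.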
